A study of Rattus norvegicus with 6 samples.

Results

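Histone transcripts were examined in the myocardium of rats with myocardial ischemia/reperfusion injury (MI/RI) and of sham rats. The members were chosen by gene symbol and on a measured value, as the entries of the expression table whose symbol begins with Hist1h to Hist4h, H1f, H2a, H2b, H3c, H3f, H4c or H4f and whose value is above 0 in at least 1 sample. There were 34 such entries of 30452, carrying 28 symbols, and another 7 entries with such a symbol were at 0 in all 6 samples (H1f7, H1f8, H2ab3, H2ac12, Hist1h2ac, Hist3h2a and 1 of 6 entries named Hist2h3c2). At the edge of the rule, Hist1h3b, Hist1h4m and H3c1 entered with a value above 0 in 1 sample each. Of the 34 entries, 26 were classed by symbol and synonym as replication-dependent genes and 8 as variants (H1f0, H1f10, H2ax, H2az1, H2az2, H3f3c and 2 entries named H3f3a). The testis genes H2ac1 and H1f6 (H1t) were counted as replication-dependent because of their names. The study is concerned with ubiquitination of the histone H2A protein, and the comparison here is of the transcripts between 3 sham and 3 MI/RI rats. All 6 were wild-type male rats. The study's methods describe a left thoracotomy for the injury model and a sham operation for sham rats. There, both groups were given vehicle, PBS injected into the caudal vein. In the MI/RI group the left anterior descending artery was closed for 30 min and the heart was taken after 6 h of reperfusion, and the labels write these times for the sham rats as well. The labels name the tissue only as myocardium, without the zone that was sampled. The values are FPKM, fragments divided by gene length and library size, so levels can be set beside each other between genes, and the values of a group are always given in the order of replicates 1, 2 and 3. Since nothing in the labels describes further how the samples of a group were obtained, the p-values measure the spread between these 3 samples per group.

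A nucleosome holds DNA around a core made of the histones H2A, H2B, H3 and H4, and a linker histone, H1, binds where the DNA enters and leaves it. Replication-dependent histone genes lie in clusters, are transcribed mainly in S phase, and give mRNAs that end in a stem-loop in place of a poly(A) tail. Variant genes such as those of H3.3 and H2A.Z are transcribed through the whole cell cycle and give polyadenylated mRNAs, so they supply histones to cells that no longer divide, as most adult cardiomyocytes. The libraries were made with a total RNA kit, and a kit of this kind does not select transcripts by their poly(A) tail.

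Promoters of both classes were searched for known motifs. The 250 bases before the transcription start, from RefSeq on the rat build GRCr8, were found for 25 of the 28 symbols (not for H3c1, H3f3c and Hist1h2ak). Both strands were read for 4 motifs, and the difference between the classes was not tested. CCAAT, bound by the factor NF-Y, was present in 18 of 19 replication-dependent promoters and in 4 of 6 variant promoters, against 34.02% of all 33469 promoters of this length. A TATA box, written as TATAAA or TATATA, was present in 13 of 19 and 1 of 6, against 16.1% of all promoters. The element of H1 promoters, AAACACA, was present in 6 of 19 and 1 of 6, against 6.08% of all promoters. The octamer known from H2B promoters, ATTTGCAT, was present in 5 of 19 and 0 of 6, against 1.56%. The promoters of 4 genes are shown, each 5′ to 3′ with the matches in capitals on either strand, where ATTGG is CCAAT read from the other strand. H2ac1 is the histone gene that passed the test below, H1f2 is the replication-dependent gene with the highest level, and H2az1 and H3f3a are variants. They lie at chr17:41599673-41599922 (minus strand), chr17:41820454-41820703 (minus strand), chr2:229028845-229029094 (plus strand) and chr13:95076696-95076945 (minus strand).
H2ac1: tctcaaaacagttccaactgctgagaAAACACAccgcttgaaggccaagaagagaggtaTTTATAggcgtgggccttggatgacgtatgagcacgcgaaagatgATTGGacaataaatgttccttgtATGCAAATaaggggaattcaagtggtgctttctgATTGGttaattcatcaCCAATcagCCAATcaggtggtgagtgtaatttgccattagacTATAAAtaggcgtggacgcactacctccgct
H1f2: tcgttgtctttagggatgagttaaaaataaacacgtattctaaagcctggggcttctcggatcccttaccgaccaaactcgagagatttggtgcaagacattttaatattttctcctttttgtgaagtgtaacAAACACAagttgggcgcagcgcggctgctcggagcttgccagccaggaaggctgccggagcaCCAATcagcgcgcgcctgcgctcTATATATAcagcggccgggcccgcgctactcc
H2az1: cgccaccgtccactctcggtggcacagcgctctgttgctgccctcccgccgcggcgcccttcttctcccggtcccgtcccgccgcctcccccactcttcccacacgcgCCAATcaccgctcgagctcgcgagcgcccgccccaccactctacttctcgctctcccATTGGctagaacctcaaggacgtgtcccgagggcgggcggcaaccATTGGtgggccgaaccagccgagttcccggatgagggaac
H3f3a: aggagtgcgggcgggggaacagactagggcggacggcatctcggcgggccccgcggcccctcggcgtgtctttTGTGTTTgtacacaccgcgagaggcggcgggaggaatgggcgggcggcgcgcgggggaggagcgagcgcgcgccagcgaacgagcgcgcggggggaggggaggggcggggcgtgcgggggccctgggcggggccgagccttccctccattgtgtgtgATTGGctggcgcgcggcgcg
The H2ac1 promoter held 8 matches, which include an octamer and a TATA box near the start. The H1f2 promoter held 4, with overlapping TATATA matches counted apart, and neither variant promoter held a TATA box or an octamer. A match describes the letters of the sequence, not binding.

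Of all 10942 genes with a mean of at least 0.5 FPKM, 32.9% differed between the groups (25.5% higher and 7.36% lower in MI/RI) by limma on log2(FPKM + 0.1) with a Benjamini-Hochberg adjusted p under 0.05, and the median log2 fold change was 0.29. The split of 2790 higher and 805 lower genes depended on the scaling. It was 2020 and 1554 with values centred on the median, 1441 and 1559 with quantile-normalized values, and 793 and 2857 when each sample was rescaled to its FPKM sum with the 13 mitochondrially encoded mRNAs set aside. These 13 mRNAs held 80.1 to 86.2% of the summed FPKM in the sham samples and 61.8 to 71.5% in the MI/RI samples. The tissue carried cardiomyocyte markers, whose sum was 3167 to 9953 FPKM in sham and 18115 to 23842 FPKM in MI/RI, with 6 of 7 tested higher. Neutrophil markers were higher in 4 of 5 (16.9 to 28.2 against 50.7 to 118.6 FPKM), fibroblast markers in 2 of 7, and lymphocyte markers lower in 2 of 4. Among monocyte and macrophage markers 1 of 6 was higher and 2 were lower, and by limma none of 7 endothelial and none of 3 red cell markers passed, with 2 and 1 at an unadjusted p under 0.05. The fibroblast count turned to 0 higher and 2 lower after quantile normalization and after the rescaling without mitochondrial mRNAs. Under the same scalings 6 and 4 endothelial markers were lower, and 2 red cell markers were lower after the rescaling. With centring, quantile normalization and the rescaling, 4, 5 and 4 of 7 cardiomyocyte markers were higher. For neutrophil markers the counts were 3, 2 and 3 of 5. After the rescaling 3 of 4 lymphocyte markers were lower. No listed marker that was found was at 0 in all samples. The part of these shifts in the histone values was not tested, and in bulk tissue fewer cells of a type and less RNA per cell cannot be told apart.

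By summed FPKM, most of the histone signal came from the variants. FPKM depend on the gene length used, and how the counting divided reads among near-identical copies is uncertain. The part of both in this contrast was not tested. Summed over the 8 variant entries, the level was 174.5, 212.6 and 229.1 FPKM in sham and 262.0, 229.7 and 240.9 FPKM in MI/RI. Summed over the 26 replication-dependent entries, it was 20.0, 18.7 and 21.1 FPKM in sham and 25.8, 12.8 and 11.7 FPKM in MI/RI. Replication-dependent entries thus made up 8.94% ± 1.18 (SD, n = 3) of the summed FPKM of all members in sham and 6.30% ± 2.33 (n = 3) in MI/RI, and the groups overlapped, because MI/RI replicate 1 (8.97%) lay within the sham range. All 8 variant entries had a mean of at least 9.69 FPKM, whereas 24 of the 26 replication-dependent entries had a mean under 0.5 FPKM. The lowest variant mean was that of H3f3c, which was high only in replicate 3 of both groups. Without H3f3c the variant sum was 172.9, 211.3 and 189.8 FPKM in sham and 260.4, 228.6 and 227.6 FPKM in MI/RI. H1f2 alone gave 65.5 to 85.4% of the replication-dependent sum.

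**Figure D1:**
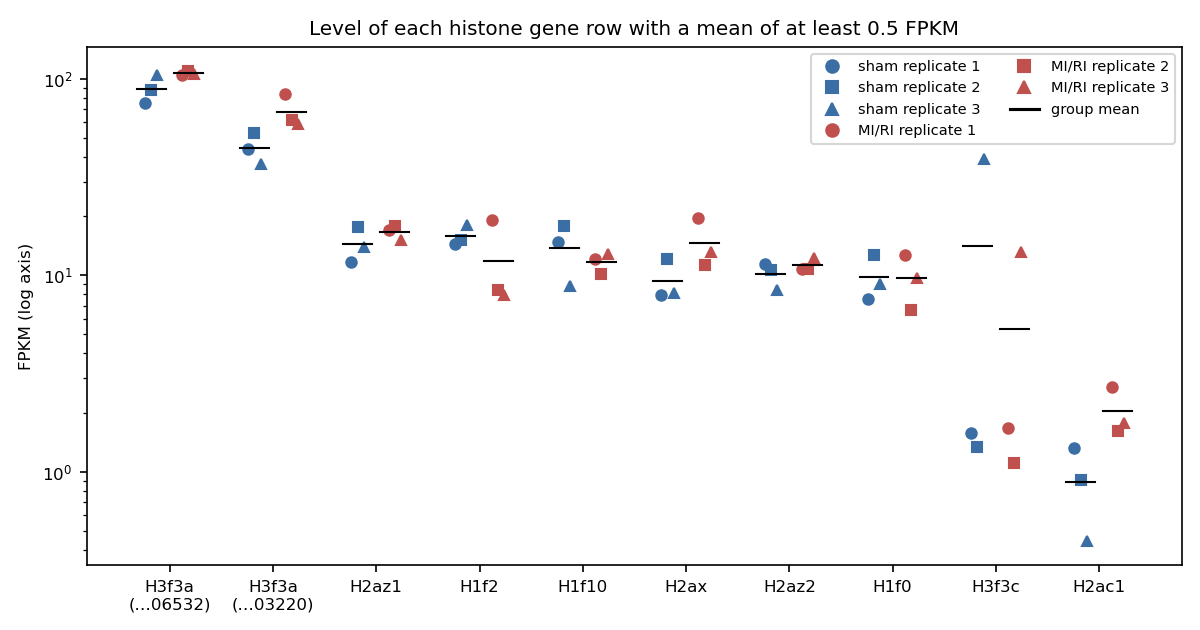
FPKM on a log axis of the 10 histone entries with a mean of at least 0.5 FPKM, with sham samples in blue, MI/RI samples in red, 1 marker shape per replicate number and a black line at each group mean. By group mean the 2 H3f3a entries lie above the others and H2ac1 is the lowest, while H3f3c is high in replicate 3 of both groups.

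In all, 10 symbols entered the fit across all genes: H1f2, H2ac1, Hist2h3c2 (its 5 entries summed) and the 7 variant symbols. The other 18 symbols lay under the filter of 0.5 FPKM. Every symbol tested had a mean above 0.5 FPKM in both groups, so none entered through 1 group alone. By limma, 1 of the 10 passed an adjusted p of 0.05, H2ac1, which was higher in MI/RI, against 32.9% of all genes, and 2 of the 10 were at an unadjusted p under 0.05. The groups did not overlap for 2 of the 10, against 50.1% of all genes. Of the 10, 6 had a log2 fold change above 0, and 3 lay above the median of all genes. The median log2 fold change was 0.03 for the 3 replication-dependent symbols and 0.15 for the 7 variants, against 0.29 for all genes. With no filter, the median over all 21 replication-dependent symbols was -0.24, against 0.08 for all genes in that fit. The variant median fell below 0 with values centred on the median (-0.09), after quantile normalization (-0.65) and after the rescaling without mitochondrial mRNAs (-0.62). The median of all genes under the same scalings was 0.04, -0.02 and -0.46.

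**Figure D2:**
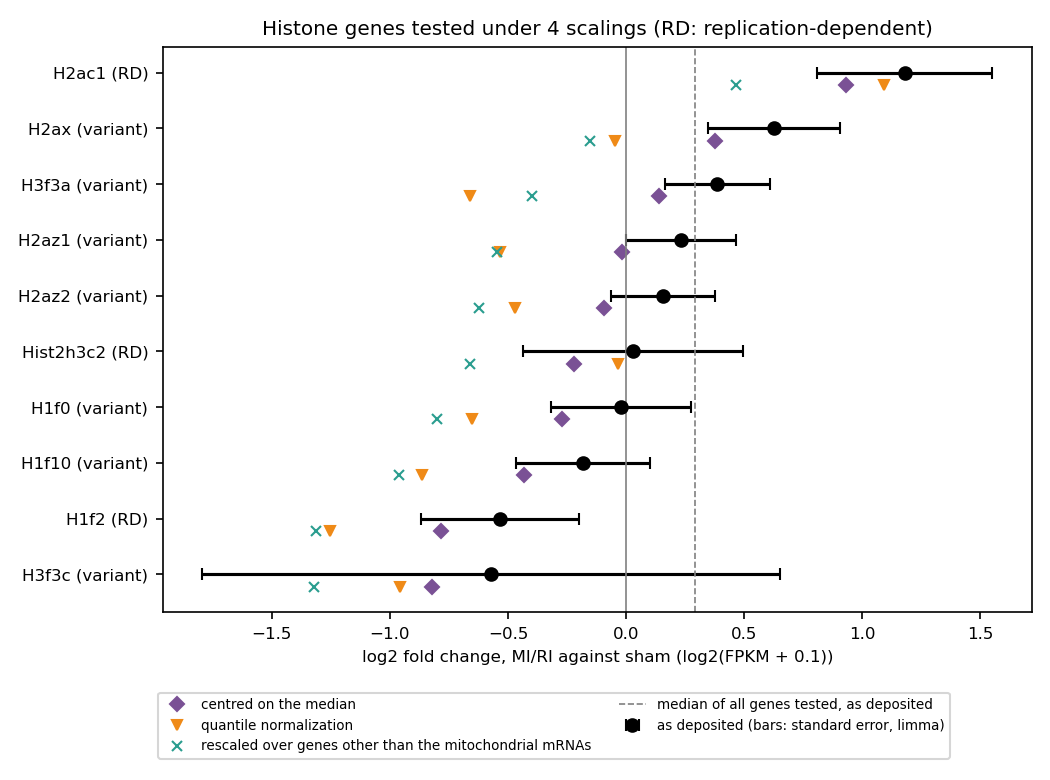
Log2 fold change of MI/RI against sham for the 10 histone symbols tested, as deposited (black points with the standard error from limma) and under 3 other scalings (coloured marks), with the median of all genes as a dashed line. H2ac1 lies above 0 under all 4 scalings and H1f2, H1f10, H1f0 and H3f3c lie below 0 under all 4, while H2ax, H3f3a, H2az1, H2az2 and Hist2h3c2 change sign with the scaling. On the TPM scale, which is not drawn, H1f0 and H1f10 lie above 0.

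Among the linker histones, H1f2 (ENSRNOG00000067441, H1.2) had 14.5, 15.03 and 18.01 FPKM in the sham group and 19.2, 8.39 and 7.97 FPKM in the MI/RI group. MI/RI replicates 2 and 3 were below every sham sample, and MI/RI replicate 1 was above them all. The log2 fold change was -0.53 (SE 0.33, limma adjusted p = 0.24; exact permutation p = 0.4, two-sided), which did not pass. Without MI/RI replicate 1 it was -0.94 (limma adjusted p = 0.021). H1f2 was also past the threshold after quantile normalization (-1.25, limma adjusted p = 0.019) and after the rescaling without mitochondrial mRNAs (-1.31, limma adjusted p = 0.0070). With 3 samples against 3, the permutation test cannot give a p under 0.1.

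The replication-independent linker histones H1f0 and H1f10 stood at a level like that of H1f2. H1f0, the H1.0 linker of differentiated cells, had 7.59, 12.7 and 8.99 FPKM in sham and 12.7, 6.65 and 9.74 FPKM in MI/RI. Its log2 fold change was -0.02 (SE 0.30, limma adjusted p = 0.96), and it was 0.17 on the TPM scale, -0.65 after quantile normalization and -0.80 after the rescaling without mitochondrial mRNAs (limma adjusted p = 0.71, 0.086 and 0.064). H1f10, which encodes H1.10, had 14.7, 17.8 and 8.86 FPKM in sham and 12.1, 10.2 and 12.8 FPKM in MI/RI. The groups overlapped for both genes. For H1f10 the log2 fold change was -0.18 (SE 0.28, limma adjusted p = 0.65). It was 0.01 on the TPM scale, and past the threshold at -0.86 after quantile normalization and -0.96 after the rescaling without mitochondrial mRNAs (limma adjusted p = 0.043 and 0.019).

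Among the H2A genes, H2ac1 (ENSRNOG00000065352), known also as Th2a and as an H2A gene of the testis, rose in MI/RI. It had 1.31, 0.907 and 0.441 FPKM in the sham group and 2.71, 1.61 and 1.76 FPKM in the MI/RI group. Every MI/RI sample was above every sham sample, and the replicate with the highest value in each group was replicate 1. The group means were 0.886 ± 0.436 and 2.03 ± 0.597 FPKM (SD, n = 3 each), with a log2 fold change of 1.18 (SE 0.37, limma adjusted p = 0.036; exact permutation p = 0.1). The call was lost when sham replicate 2 or 3 or MI/RI replicate 1 or 3 was left out, with log2 fold changes of 1.25, 0.80, 0.96 and 1.26 and limma adjusted p values of 0.078, 0.12, 0.12 and 0.058. It was lost as well with centring on the median (0.93, limma adjusted p = 0.075), quantile normalization (1.09, limma adjusted p = 0.059), no filter on low values (1.18, limma adjusted p = 0.099) and the rescaling without mitochondrial mRNAs (0.46, limma adjusted p = 0.34).

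The depth behind H2ac1 was read from the steps of its values. FPKM values of 1 gene differ by whole multiples of what 1 fragment is worth in each library, and the relative depths read from them were 1, 1.18 and 1.14 in sham and 0.873, 0.935 and 0.881 in MI/RI. The smallest whole numbers that fit the H2ac1 values were 76, 62 and 29 fragments in sham and 137, 87 and 90 in MI/RI. The same reading gave 2545, 3117 and 3592 fragments for H1f2 in sham and 2936, 1378 and 1234 in MI/RI. True numbers could be multiples of these, and the absolute depth is unknown.

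The H2A variants did not pass the test. H2ax, which encodes H2A.X, the histone phosphorylated at DNA breaks, had 7.97, 12.1 and 8.15 FPKM in sham and 19.6, 11.3 and 13.2 FPKM in MI/RI. MI/RI replicates 1 and 3 were above every sham sample, and MI/RI replicate 2 was below sham replicate 2. The log2 fold change was 0.63 (SE 0.28, unadjusted p = 0.049 and adjusted p = 0.11 by limma; exact permutation p = 0.2), and it was -0.05 after quantile normalization and -0.15 after the rescaling without mitochondrial mRNAs.

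H2az1 and H2az2 encode the forms of H2A.Z, a variant placed at promoters and enhancers. H2az1 had 11.7, 17.6 and 13.9 FPKM in sham and 17.1, 17.8 and 15.2 FPKM in MI/RI. H2az2 had 11.4, 10.6 and 8.42 FPKM in sham and 10.7, 10.8 and 12.2 FPKM in MI/RI. In both genes the groups overlapped and the MI/RI samples were the closer to each other, with a coefficient of variation of 8.01% against 20.8% in sham for H2az1 and 7.48% against 15.3% for H2az2. The log2 fold changes were 0.23 (SE 0.23) and 0.15 (SE 0.22), with limma adjusted p values of 0.47 and 0.62. They were below 0 with centring (-0.02 and -0.09), quantile normalization (-0.53 and -0.47) and the rescaling without mitochondrial mRNAs (-0.55 and -0.62). H2az1 made up 58.4% ± 6.79 (SD, n = 3) of the sum of both genes in sham and 59.7% ± 3.71 (n = 3) in MI/RI.

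H3f3a, which encodes the replacement histone H3.3, was the most abundant histone symbol. The table gave this symbol to 2 entries, and whether 1 of them is H3f3b, the other gene known to encode H3.3, could not be settled, so their sum may cover both genes. The entries summed to 119.6, 140.5 and 141.5 FPKM in sham and 188.1, 171.9 and 164.5 FPKM in MI/RI. All MI/RI samples were above all sham samples, yet the log2 fold change of 0.39 (SE 0.22, limma adjusted p = 0.21; exact permutation p = 0.1) did not pass, and it was -0.66 after quantile normalization and -0.40 after the rescaling without mitochondrial mRNAs. The first entry, ENSRNOG00000003220, had 44.0, 52.8 and 37.1 FPKM in sham and 83.6, 61.6 and 59.2 FPKM in MI/RI. Its groups did not overlap (log2 fold change 0.61, SE 0.25, limma adjusted p = 0.087). The second, ENSRNOG00000006532, had 75.6, 87.8 and 104.5 FPKM in sham and 104.5, 110.3 and 105.4 FPKM in MI/RI, where sham replicate 3 reached MI/RI replicate 1 (log2 fold change 0.27, limma adjusted p = 0.39).

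H3f3c, which RefSeq lists as a pseudogene, was high in replicate 3 of both groups. It had 1.57, 1.33 and 39.2 FPKM in sham and 1.67, 1.11 and 13.2 FPKM in MI/RI, and the highest sample was 35.3 times the lowest. The other 4 samples lay between 1.11 and 1.67 FPKM. The fragments were 71, 71 and 2012 in sham and 66, 47 and 526 in MI/RI. The log2 fold change was -0.57 (SE 1.22, limma adjusted p = 0.74), it was 0.98 without sham replicate 3 and 0.10 without MI/RI replicate 2. H3f3c took 21.7% of the summed FPKM of H3f3a and H3f3c in sham replicate 3, 7.43% in MI/RI replicate 3, and 0.643 to 1.30% in the other samples. With H3f3c added to both H3f3a entries, the sums were 121.2, 141.9 and 180.8 FPKM in sham and 189.8, 173.0 and 177.8 FPKM in MI/RI, and the groups then overlapped through sham replicate 3. These genes share near-identical sequence, so how the counting divided their reads is uncertain.

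**Figure D3:**
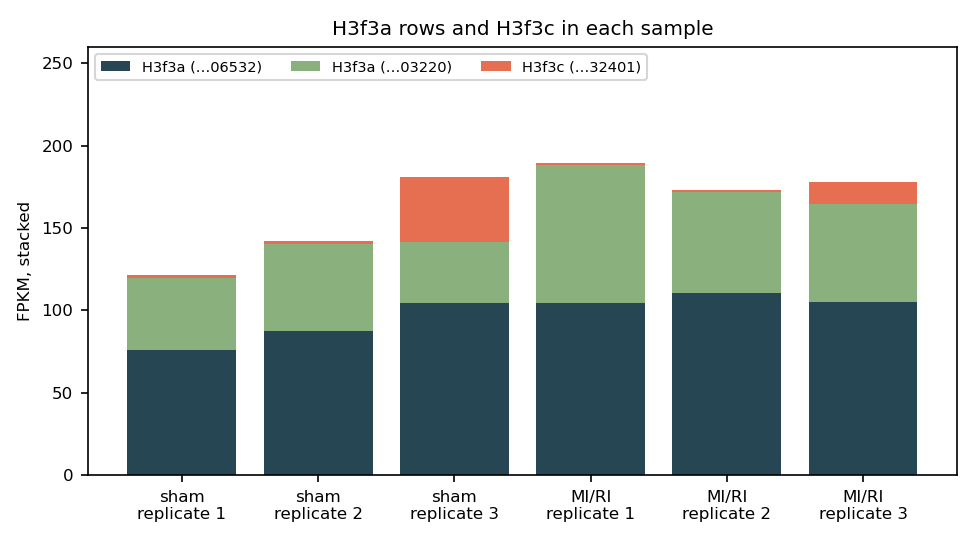
FPKM of both H3f3a entries and of H3f3c, stacked, in each of the 6 samples. The H3f3c segment is visible in sham replicate 3 (39.2 FPKM) and MI/RI replicate 3 (13.2 FPKM) and thin in the other 4 samples, and with it sham replicate 3 reaches the MI/RI samples.

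Hist2h3c2, a replication-dependent H3 symbol carried by 5 entries above 0, summed to 1.05, 0.550 and 0.612 FPKM in sham and 1.58, 0.410 and 0.560 FPKM in MI/RI. The groups overlapped, with replicate 1 the highest in each (log2 fold change 0.03, SE 0.47, limma adjusted p = 0.97), and the direction turned with centring (-0.22), quantile normalization (-0.03), the rescaling without mitochondrial mRNAs (-0.66) and without MI/RI replicate 1 (-0.48), sham replicate 2 (-0.13) or sham replicate 3 (-0.065). A single entry, ENSRNOG00000063016, held 18 fragments in MI/RI replicate 1, 1 in sham replicate 1 and none elsewhere. These copies share near-identical coding sequence, so how the counting divided their reads is uncertain.

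The 24 replication-dependent entries under 0.5 FPKM had means from 0.00744 to 0.376 FPKM. Of these, 7 were above 0 in all samples, 14 in 2 to 5 samples and 3 in a single sample, and in 11 the smallest whole numbers summed to at most 12 fragments over all 6 libraries. The 3 in a single sample are among these 11, because the smallest number that fits 1 value is always 1. Their depth is therefore not known. Entries above 0 numbered 19, 19 and 15 in sham and 14, 14 and 12 in MI/RI, and their fragments 230, 222 and 222 in sham and 149, 157 and 138 in MI/RI. The MI/RI libraries were also the shallower ones, and the summed FPKM overlapped, at 4.22, 2.80 and 2.65 in sham and 3.95, 2.81 and 2.0 in MI/RI. With no filter on low values, limma passed 0 of the 28 histone symbols, against 14.8% of all 19226 genes in that fit, the smallest adjusted p was 0.099 and 2 symbols had an unadjusted p under 0.05.

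**Figure D4:**
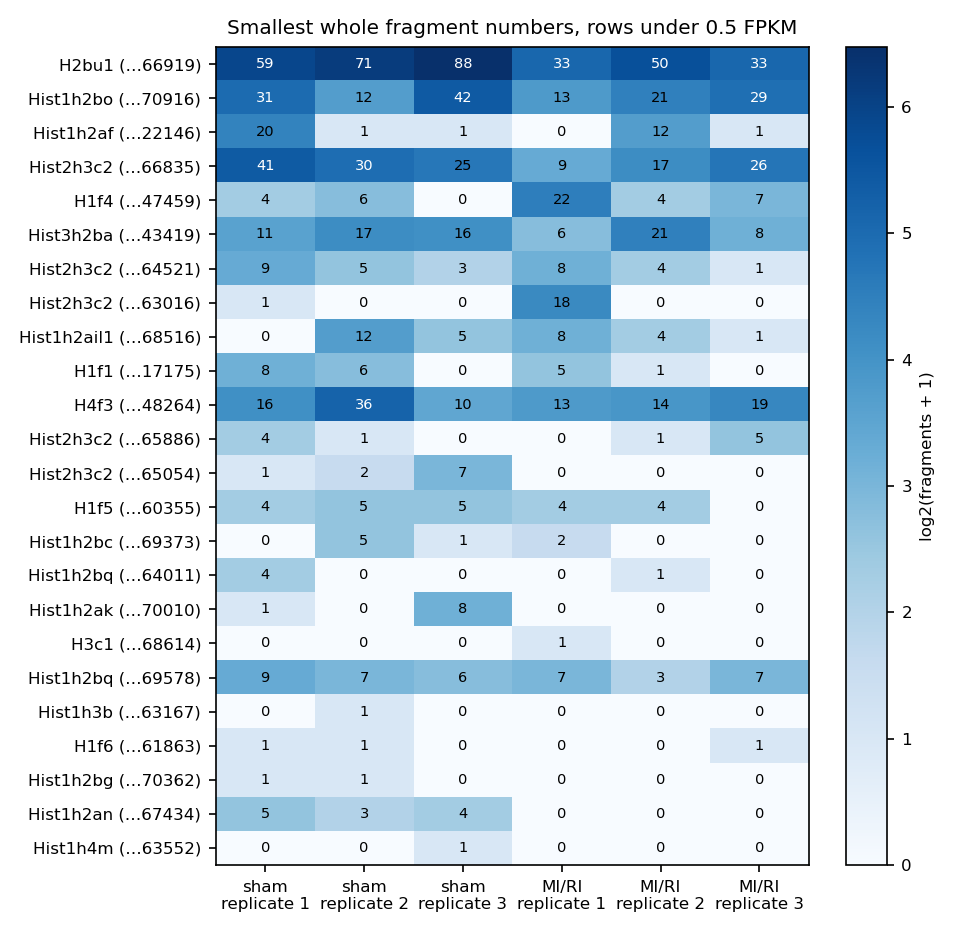
Smallest whole numbers of fragments that fit the FPKM values of the 24 replication-dependent entries under 0.5 FPKM (one per line, ordered by mean FPKM) in each of the 6 samples, coloured by log2(fragments + 1). H2bu1 leads with 33 to 88 fragments, and the other entries hold 0 to 42.

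By symbol, these low entries covered every core histone. H2bu1, an H2B gene that lies outside the large cluster, was the highest of them, with 59, 71 and 88 fragments in sham and 33, 50 and 33 in MI/RI. In FPKM its mean was 0.455 ± 0.0719 in sham and 0.298 ± 0.0635 in MI/RI (SD, n = 3 each), with no overlap between the groups and a log2 fold change of -0.48 in the fit without a filter (limma adjusted p = 0.31). Hist1h2an held 5, 3 and 4 fragments in sham and 0 in each MI/RI sample. These and 1 Hist2h3c2 entry (1, 2 and 7 fragments in sham and 0 in MI/RI) were the 3 low entries that lay lower without overlap, and 0 lay higher. How many other genes at this level lie apart in this way was not counted, so these counts have no share to stand beside. H1f4, which encodes the linker H1.4, held 4, 6 and 0 fragments in sham and 22, 4 and 7 in MI/RI, and H4f3 held 16, 36 and 10 in sham and 13, 14 and 19 in MI/RI. All the low entries named in this paragraph were singled out after their values were seen. RefSeq lists the H1 name Hist1h1d among the synonyms of H4f3, so its symbol does not settle its family.

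The genes of S phase and mitosis were not highest in 1 common sample. Of the 19 tested, 7 were highest in sham replicate 2 (Birc5, Ccna2, Cdk1, Mki67, Tk1, Top2a and Tyms), 6 in MI/RI replicate 1 (Cdt1, Mcm2, Mcm4, Mcm5, Mcm6 and Rrm1), 2 in each of sham replicates 1 and 3 and MI/RI replicate 2, and 0 in MI/RI replicate 3. Mki67, the marker of cycling cells, had 0.573, 2.93 and 0.544 FPKM in sham and 0.247, 0.205 and 0.239 FPKM in MI/RI. Mcm2, a subunit of the replicative helicase, had 1.35, 1.32 and 1.11 FPKM in sham and 2.43, 1.58 and 1.83 FPKM in MI/RI. The replication-dependent histone sum was highest in MI/RI replicate 1 (25.8 FPKM) and, among the sham samples, lowest in replicate 2 (18.7 FPKM). Without H1f2 the sum was 5.54, 3.71 and 3.09 FPKM in sham and 6.66, 4.42 and 3.76 FPKM in MI/RI.

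**Figure D5:**
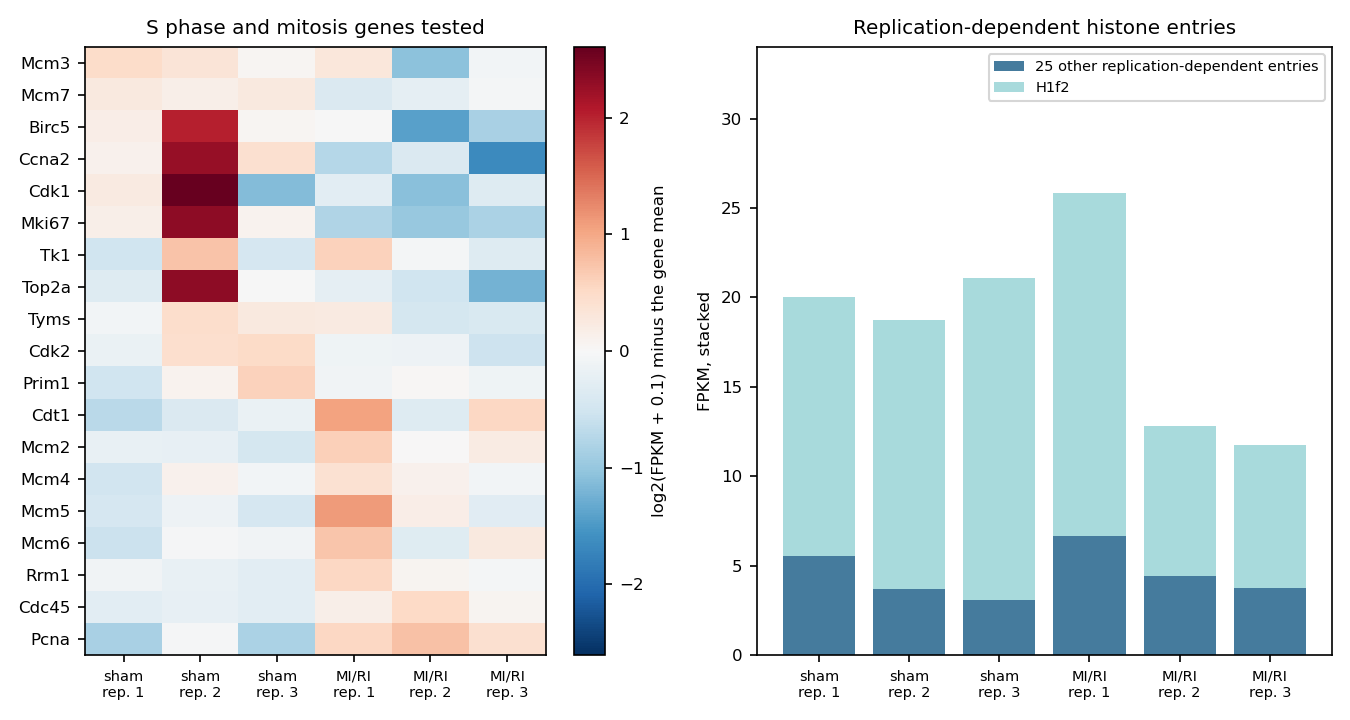
Level of the 19 S phase and mitosis genes tested in each of the 6 samples, as log2(FPKM + 0.1) minus the mean of the gene (left, red high and blue low), and FPKM of the replication-dependent histone entries, stacked as H1f2 and the other 25 entries (right). On the left the genes are ordered by the sample in which each is highest. The 7 genes highest in sham replicate 2 and the 6 highest in MI/RI replicate 1 therefore lie together through this ordering. On the right MI/RI replicate 1 has the highest sum (25.8 FPKM).

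Among the S phase and mitosis genes tested, 1 of 19 was higher and 2 were lower, against 25.5% and 7.36% of all genes, with a median log2 fold change of -0.11 against 0.29 for all genes. With centring, 1 was higher and 6 were lower, against 2020 and 1554 of all 10942 genes. After the rescaling without mitochondrial mRNAs, 0 were higher and 9 were lower (median -0.86), against 793 and 2857 of all 10942 genes (median -0.46). Pcna, the sliding clamp of DNA replication that also acts in repair, rose from 6.33 ± 2.23 to 13.5 ± 1.67 FPKM (SD, n = 3 each; log2 fold change 1.13, limma adjusted p = 0.013), and this call was lost without sham replicate 3 (0.998, limma adjusted p = 0.054), after quantile normalization (0.53, limma adjusted p = 0.15) and after the rescaling without mitochondrial mRNAs (0.35, limma adjusted p = 0.39). Mki67 and the S phase cyclin Ccna2 fell by 1.73 and 1.86 on the log2 scale (limma adjusted p = 0.043 and 0.046). Neither call held without sham replicate 2 (-0.997 and -1.19, limma adjusted p = 0.12 and 0.17), and both were lost under several other settings, among them a pseudocount of 1 and leaving out MI/RI replicate 1 or 3.

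The machinery that processes replication-dependent histone mRNA had 0 genes past the threshold as reported. By limma, 0 of 9 genes tested passed, against 32.9% of all genes, 1 (Cpsf3) was at an unadjusted p under 0.05, and the median log2 fold change was -0.10. Slbp, which binds the stem-loop at the end of these mRNAs, had 2.67 ± 0.522 FPKM in sham and 2.84 ± 0.806 FPKM in MI/RI (SD, n = 3 each; log2 fold change 0.07, limma adjusted p = 0.85). Npat, the coactivator of replication-dependent histone genes, had 0.962 ± 0.329 and 0.573 ± 0.128 FPKM (log2 fold change -0.62, limma adjusted p = 0.19). Cpsf3, the endonuclease that cuts histone and other pre-mRNAs, had 3.25 ± 0.403 and 5.67 ± 2.02 FPKM (log2 fold change 0.74, limma adjusted p = 0.063). Cpsf3 passed with the replicate number as a block (limma adjusted p = 0.040), on the TPM scale (0.040) and without MI/RI replicate 2 (0.049). After the rescaling without mitochondrial mRNAs, 4 of the 9 were lower (Eri1, Gon4l, Hinfp and Npat), against 2857 of all 10942 genes. With centring 1 of the 9 was lower (Gon4l), against 1554 of all 10942 genes.

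Among histone chaperones and exchange factors, 5 of 19 genes tested were higher and 0 were lower, against 25.5% and 7.36% of all genes, and the median log2 fold change was 0.14. The balance turned with the scaling, to 2 higher and 2 lower after quantile normalization, against 1441 higher and 1559 lower of all 10942 genes. After the rescaling without mitochondrial mRNAs, 1 was higher and 5 were lower, with a median of -0.62. Over all 10942 genes that rescaling gave 793 higher and 2857 lower, with a median of -0.46. Anp32e, the chaperone that removes H2A.Z from chromatin, had 5.23, 5.33 and 4.48 FPKM in sham and 11.3, 10.7 and 9.43 FPKM in MI/RI (log2 fold change 1.05, SE 0.21, limma adjusted p = 0.0069). Vps72, an H2A.Z-binding subunit of the exchange complexes, had 6.81, 8.27 and 5.41 FPKM in sham and 12.7, 12.2 and 13.2 FPKM in MI/RI (0.90, SE 0.23, limma adjusted p = 0.016). Znhit1, a subunit of the SRCAP exchange complex, had 6.16, 4.21 and 4.39 FPKM in sham and 9.96, 9.06 and 9.06 FPKM in MI/RI (0.93, SE 0.23, limma adjusted p = 0.014). In each of these 3 genes, picked because they passed, every MI/RI sample was above every sham sample. The groups did not overlap, in either direction, for 50.1% of all genes. Srcap, the ATPase of that complex, had a log2 fold change of -0.02 (limma adjusted p = 0.95), and Ep400, the ATPase of another complex that places H2A.Z, had -0.12 (limma adjusted p = 0.77).

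The other members past the threshold were Nap1l4, an H2A-H2B chaperone, and Rbbp4, a histone-binding subunit of several chromatin complexes. Nap1l4 had 10.01, 9.45 and 6.99 FPKM in sham and 36.1, 20.5 and 20.2 FPKM in MI/RI (1.49, SE 0.29, limma adjusted p = 0.0058). Rbbp4 rose by 0.83 on the log2 scale (limma adjusted p = 0.030). For the H3.3 chaperones, Hira had a log2 fold change of -0.21 (limma adjusted p = 0.56) and Daxx -0.51 (limma adjusted p = 0.11, groups without overlap). Nap1l4 stayed past the threshold under every setting run, and Anp32e under every one but the rescaling without mitochondrial mRNAs (0.28, limma adjusted p = 0.42). The calls of Vps72, Znhit1 and Rbbp4 were lost both after that rescaling (0.13, 0.16 and 0.07) and after quantile normalization (0.32, 0.47 and 0.48). Those of Vps72 and Znhit1 were also lost without sham replicate 3 (0.75 and 0.86), that of Znhit1 without sham replicate 2 (0.83), and that of Rbbp4 with no filter on low values (limma adjusted p = 0.061) and when any 1 library other than sham replicate 2 was left out (0.64 to 0.91).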

How the data were processed

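RNA of the myocardium of 3 sham and 3 MI/RI rats had been sequenced from stranded total RNA libraries, and in the 1 table that the authors deposited each gene has an FPKM value per sample. The submitters' processing notes name STAR and HTSeq. Their versions, the genome build and the total used for scaling are not given in the sources used here. All 6 sample columns were matched to samples by name. Entries with the same symbol were summed, and log2(FPKM + 0.1) was computed for the 10942 genes with a mean of at least 0.5 FPKM. MI/RI was set against sham in R 4.3.3 with the limma package, version 3.58.1 (a linear model per gene with moderated variances that follow the mean level, Benjamini-Hochberg adjustment over all genes tested, threshold 0.05), which was tested on simulated data, and single values with a two-sided exact permutation test in Python 3.11.15. Genes named are those past the threshold, the 10 entries with the highest mean FPKM, the other symbol tested, low entries singled out after their values were seen (H2bu1, Hist1h2an, H1f4, H4f3 and Hist2h3c2 copies), and variants of a set list (H2aj, H3f3b and the macroH2A genes on it are not reported here). Replication-dependent and variant genes were told apart by symbol and RefSeq synonym, and H1f6 is named for its testis synonym. The members and lists were chosen with earlier results of these data known. Same-numbered sham and MI/RI samples, numbered in the labels, correlated in their deviations from the group means at 0.203, 0.117 and 0.118, and sham replicate 3 with MI/RI replicate 2 at 0.120, so the replicate number was also used as a block, as an alternative. Whole fragments were found for all 34 entries, and for 99.0% of 3124 low entries within a tolerance of 0.02. Ensembl identifiers could not be paired with RefSeq, so promoters were matched by symbol. Other alternatives were other pseudocounts, filters and scalings, limma without the trend, entries kept apart, and leaving out each sample.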

Additional observations from a re-analysis of the deposited data

How the results depend on the processing

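FPKM carry no absolute depth, and 24 of the 26 replication-dependent entries lie under 0.5 FPKM. The count of replication-dependent genes called higher was 1 as reported and 0 with centring on the median, a filter at 5 FPKM (H2ac1 is then not tested), no filter, quantile normalization and the rescaling without mitochondrial mRNAs, and 0 to 1 with 1 sample left out. The count called lower was 0 as reported and 1 (H1f2) under quantile normalization and the rescaling, and 0 to 1 with 1 sample left out. For variants, 1 (H1f10) was called lower under both of these scalings. The variant median was 0.15 as reported, -0.095 with centring, -0.65 after quantile normalization and -0.62 after the rescaling. The replication-dependent median was 0.03 as reported, -0.24 over 21 symbols with no filter, -0.53 with the filter at 5 FPKM, where H1f2 is the only gene tested, -0.66 after the rescaling, and -0.48 to 0.38 with 1 sample left out. The median of all genes was 0.29 as reported, 0.04 with centring, -0.02 after quantile normalization and -0.46 after the rescaling. For all genes it was 0.08 with no filter and 0.66 with the filter at 5 FPKM. Directions turned for H2ax, H3f3a, H2az1, H2az2 and Hist2h3c2 after quantile normalization (-0.048, -0.66, -0.53, -0.47 and -0.034) and the rescaling (-0.15, -0.40, -0.55, -0.62 and -0.66). They turned for H2az1, H2az2 and Hist2h3c2 with centring (-0.017, -0.095 and -0.22), and for H1f0 and H1f10 on the TPM scale (0.17 and 0.011). With 1 sample left out, H1f0 ranged from -0.24 to 0.22, H1f10 from -0.47 to 0.029, H3f3c from -1.63 to 0.98 and Hist2h3c2 from -0.48 to 0.38, while H1f2, H2ac1, H2ax, H2az1, H2az2 and H3f3a kept their direction. The cause of these changes was not tested. The replicate block changed no call of a histone gene (H2ac1 limma adjusted p = 0.014), and gave 3085 higher and 895 lower among all genes. Over all genes, the filter at 5 FPKM gave 1892 higher and 166 lower, and leaving out 1 sample gave 1528 to 2557 higher and 309 to 881 lower.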
